A study of Mus musculus with 4 samples.

Results

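Chemokine genes of the CXC family (Cxcl1, Cxcl2, Cxcl9, Cxcl10, Cxcl12, Cxcl13, Cxcl14 and Cxcl16) and the pair of genes for calprotectin, S100a8 and S100a9, were followed in regenerating mouse liver. They were the 10 genes of these names among 10923 genes measured, and 14 of 18852 probe sets carried 1 of these symbols and no other. Both groups were male C57BL6/J mice of 6 to 13 weeks that received 1 injection of siRNA in a lipid carrier, then 40% partial hepatectomy 3 days later, with livers taken 48 hours after the operation. The siControl group had 2 arrays of livers given control siRNA, and the siOrm group had 2 arrays of livers given siRNA against Orm1, the gene of the acute phase protein orosomucoid. The titles siOrm1 and siOrm2 do not settle whether the ending counts replicates or names the Orm1 and Orm2 genes, and source name and description put both arrays in 1 group. The labels do not say whether an array is 1 mouse or a pool, so any spread given here may be technical, and they describe RNA extraction from cultured cells although the tissue is given as liver.

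Chemokines are small secreted proteins that guide white blood cells along gradients, and the CXC family is named for a pair of cysteines parted by another residue. CXCL1 and CXCL2 draw neutrophils through the receptor CXCR2, CXCL9 and CXCL10 are induced by interferon and draw T cells and NK cells through CXCR3, and CXCL12, CXCL13 and CXCL16 act through CXCR4, CXCR5 and CXCR6. S100A8 and S100A9 join into calprotectin, a calcium- and metal-binding protein that neutrophils and monocytes hold in bulk and release during inflammation, where it can act on the receptor TLR4. In liver, hepatocytes, Kupffer cells, endothelium and stellate cells can all make chemokines, and recruited white blood cells are a known part of the early response to hepatectomy.

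Every value is a log2 signal relative to the median of the 4 arrays, with base 2 assumed since the table does not state it, and every difference is siOrm minus siControl in the same units. With 4 arrays, the centring puts both middle arrays of every probe set at equal distances on either side of 0. Values near 0 thus mean near the middle of the 4 arrays and not low expression. Signal level and background cannot be seen in centred values, so no gene's level can be set against another's. In tissue RNA, fewer cells of a type and less RNA per cell cannot be told apart.

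The targeted gene Orm1 stood at 0.015 and 0.19 in siControl and at -0.24 and -0.015 in siOrm, a difference of -0.23 with a standard error of 0.15. Over all genes, 0 of 10923 passed the test between groups (limma, adjusted p under 0.05; smallest adjusted p = 0.857), 520 had an unadjusted p under 0.05, and a variance prior with a trend called 11. The siControl arrays were further apart than the siOrm arrays, with a standard deviation over genes of the gap between arrays of 0.384 against 0.249. The 9 measured hepatocyte markers had list means between -0.063 and 0.032 in the 4 arrays.

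The chemokine and calprotectin genes fell into 3 patterns. Cxcl2, Cxcl9, Cxcl10, Cxcl14, S100a8 and S100a9 stood in siControl replicate 2 more than 1 log2 unit above every other array. Cxcl1 was instead highest in siControl replicate 1 and far lowest in siOrm replicate 1. Cxcl12, Cxcl13 and Cxcl16 stayed within 0.26 of the median in all 4 arrays. These genes were chosen by name with their values in these 4 arrays known, among them the height of some in 1 siControl array, so the values are a description and were not tested as a group.

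**Figure D1:**
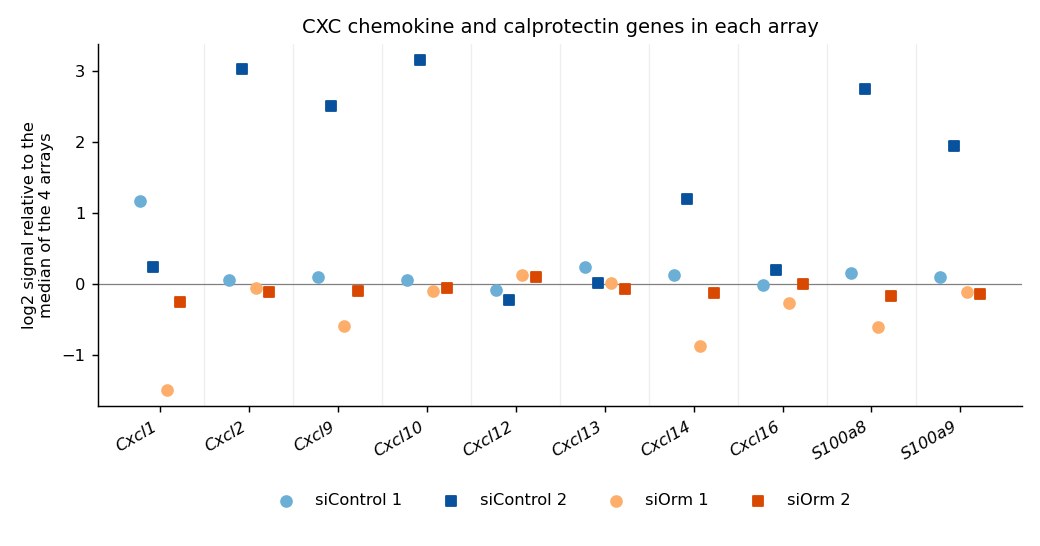
Log2 signal of each gene relative to the median of the 4 arrays (vertical axis) for the 10 genes, with 1 point per array; blue marks siControl, orange siOrm, circles replicate 1 and squares replicate 2. In siControl replicate 2, Cxcl2, Cxcl9, Cxcl10 and S100a8 lie between 2.51 and 3.15, while Cxcl1 is highest in siControl replicate 1 at 1.17.

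The neutrophil attractants Cxcl1 and Cxcl2, neighbours on chromosome 5, had different patterns. Cxcl1 (probe set 1419209_at) stood at 1.17 and 0.25 in siControl replicates 1 and 2 and at -1.49 and -0.25 in siOrm replicates 1 and 2. Both siOrm arrays were below both siControl arrays, and each group was itself spread, by 0.92 for the siControl pair and by 1.24 for the siOrm pair. The difference was -1.58 (SE 0.48, n = 2 arrays per group), a siOrm level of 0.335 times that of siControl on the geometric mean. Cxcl2 (1449984_at) stood at 0.054 and 3.03 in siControl and at -0.054 and -0.11 in siOrm. Here 1 array was high and the other 3 lay between -0.11 and 0.054. The difference of -1.63 (SE 0.90) was close in size to that of Cxcl1, but siControl replicate 2 held 7.89 times the Cxcl2 signal of siControl replicate 1, whereas for Cxcl1 that ratio was 0.528. Without siControl replicate 2 the Cxcl2 difference was -0.14, while that of Cxcl1 was -2.04.

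The upstream sequences of Cxcl1, Cxcl2, Cxcl9 and Cxcl10, all of which hold an NF-kappaB motif, are shown. They are the 250 bases before the RefSeq start (build GRCm38.p6), written 5′ to 3′ on the gene's strand, with matches to the searched motifs in capitals.
Cxcl1, chr5:90890995-90891244, strand +: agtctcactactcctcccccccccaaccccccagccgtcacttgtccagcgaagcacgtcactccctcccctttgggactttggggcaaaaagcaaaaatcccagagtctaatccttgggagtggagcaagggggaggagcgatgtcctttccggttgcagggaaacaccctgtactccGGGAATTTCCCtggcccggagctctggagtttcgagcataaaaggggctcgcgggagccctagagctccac
Cxcl2, chr5:90903649-90903898, strand +: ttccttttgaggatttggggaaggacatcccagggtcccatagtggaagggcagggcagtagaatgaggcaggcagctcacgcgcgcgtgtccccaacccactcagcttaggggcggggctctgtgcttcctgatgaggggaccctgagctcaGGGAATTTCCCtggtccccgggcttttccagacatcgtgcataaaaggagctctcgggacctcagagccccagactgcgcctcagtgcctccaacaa
Cxcl9, chr5:92328080-92328329, strand -: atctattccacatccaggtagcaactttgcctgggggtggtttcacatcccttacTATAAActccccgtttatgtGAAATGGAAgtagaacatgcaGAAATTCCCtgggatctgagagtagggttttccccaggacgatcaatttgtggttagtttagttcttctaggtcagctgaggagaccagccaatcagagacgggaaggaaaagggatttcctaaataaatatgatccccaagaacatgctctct
Cxcl10, chr5:92348890-92349139, strand -: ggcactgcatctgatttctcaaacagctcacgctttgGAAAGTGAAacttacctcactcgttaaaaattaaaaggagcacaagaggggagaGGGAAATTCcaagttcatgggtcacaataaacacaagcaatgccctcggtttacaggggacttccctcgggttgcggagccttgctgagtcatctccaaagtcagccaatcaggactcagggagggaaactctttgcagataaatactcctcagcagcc
The NF-kappaB motif was searched as GGGANNTTC on both strands and was found in 3.23% of 32851 promoter windows of this length. Cxcl1 and Cxcl2 hold it inside the 11 bases GGGAATTTCCC, a palindrome except at its central base, in which matches on both strands overlap. This stretch begins 71 bases before the start of Cxcl1 and 97 before that of Cxcl2. It opens the longest run that the windows of Cxcl1 and Cxcl2 share, the 14 bases GGGAATTTCCCtgg. Of the 32851 windows, 2 held that run, those of Cxcl1 and Cxcl2 from which it was picked. The 11 bases alone were held by 12 windows, counted on the gene's strand. Cxcl10 holds the motif as GGGAAATTC at 159 bases, and Cxcl9 holds it on the other strand, as GAAATTCCC at 154 bases. The core of the interferon-stimulated response element, searched as GAAANNGAA on both strands and found in 7.13% of windows, was matched by GAAAGTGAA at 213 bases in Cxcl10 and by GAAATGGAA at 175 bases in Cxcl9. The TATAAA of Cxcl9, at 195 bases, is the remaining stretch in capitals. These are matches of letters and show no binding. No link between a match and a gene's pattern over the arrays was tested.

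Of the 10 genes, 9 had a promoter window in the table, and 5 of the 9 held the NF-kappaB motif, the fifth being S100a9 at 135 bases. The interferon-stimulated core was also found for Cxcl14, at 172 bases. A gamma-activated site, searched as TTCNNNGAA (7.02% of windows), was found for Cxcl14 at 191 bases. A C/EBP motif, searched as TTNNGCAA (9.56%), was found for Cxcl13 and S100a9. A TATA box, searched as TATAAA (12.4%), was found for S100a8 at 30 bases, Cxcl13 at 46 and Cxcl9. All searches covered both strands, and no match for Cxcl12 says only that these letters are not in its window.

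The interferon-induced ligands Cxcl9 and Cxcl10 were both high in siControl replicate 2. Cxcl10 (1418930_at) stood at 0.054 and 3.15 in siControl and at -0.10 and -0.054 in siOrm. Its value in siControl replicate 2 was the second highest of all 10923 genes in that array, and its margin over the next array, 3.10, ranked 1 among all genes. The difference between groups was -1.68 (SE 0.93). Cxcl9 (1418652_at) stood at 0.10 and 2.51 in siControl and at -0.59 and -0.10 in siOrm. For Cxcl9, siOrm replicate 1 lay 0.49 below siOrm replicate 2, a step that Cxcl10 did not have (0.046 in the same direction). The Cxcl9 difference was -1.65 (SE 0.75). Without siControl replicate 2 these differences were -0.13 for Cxcl10 and -0.45 for Cxcl9.

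Cxcl14, a chemokine made by many epithelia whose receptor is not settled, was measured by a pair of probe sets that disagreed in size. Probe set 1418457_at stood at 0.16 and 1.94 in siControl and at -1.50 and -0.16 in siOrm, a difference of -1.88. Probe set 1418456_a_at, whose mark stands for alternative transcripts of a gene, stood at 0.096 and 0.47 against -0.25 and -0.096, a difference of -0.45. Both gave the same order of the 4 arrays, with siControl replicate 2 highest and siOrm replicate 1 lowest. Their mean differed by -1.17 (SE 0.41) between groups, or by -0.63 without siControl replicate 2.

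Cxcl12, the ligand that holds stem cells and lymphocytes in tissues, was the 1 gene of the set that was higher in siOrm. It stood at -0.080 and -0.22 in siControl and at 0.13 and 0.10 in siOrm, a difference of 0.26 (SE 0.13). Its probe sets gave 0.33 (1417574_at) and 0.19 (1448823_at), and the groups did not overlap in either. Cxcl13, which brings B cells into follicles, stood at 0.24 and 0.018 against 0.013 and -0.071, a difference of -0.16 (SE 0.14), or -0.047 without siControl replicate 1 and -0.27 without siControl replicate 2. Its probe sets put the siControl arrays in opposite order: 1448859_at had siControl replicate 1 higher by 0.60, and 1417851_at had siControl replicate 2 higher by 0.16. Cxcl16, made as a membrane-bound scavenger receptor and shed as a chemokine, was the 1 gene whose groups overlapped. It stood at -0.010 and 0.20 against -0.26 and 0.010, a difference of -0.22 (SE 0.16), and its probe sets gave -0.15 (1418718_at) and -0.28 (1449195_s_at).

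The calprotectin genes, which lie close together on chromosome 3, followed the pattern of Cxcl2, Cxcl9 and Cxcl10. S100a8 (1419394_s_at) stood at 0.16 and 2.75 in siControl and at -0.60 and -0.16 in siOrm. S100a9 (1448756_at) stood at 0.10 and 1.95 in siControl and at -0.10 and -0.14 in siOrm. In both, siControl replicate 2 was far above the rest, holding 6.00 times the S100a8 signal and 3.59 times the S100a9 signal of siControl replicate 1. The differences between groups were -1.83 (SE 0.79) for S100a8, the largest in size of the 10, and -1.15 (SE 0.56) for S100a9. Without siControl replicate 2 they were -0.54 and -0.23. The S100a8 probe set carries the maker's mark for sequence that other transcripts can share, so its signal may not come from S100a8 alone.

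As a set, 8 of the 10 genes had siOrm wholly below siControl, 1 (Cxcl12) had it wholly above, and 1 (Cxcl16) overlapped. Cxcl13 was among the 8 by a narrow margin, with siControl replicate 2 at 0.018 and siOrm replicate 1 at 0.013. In its probe set 1448859_at the groups overlapped. Over all genes the groups were apart with siOrm lower in 15.3% and with siOrm higher in 17% (1670 and 1854 of 10923). The median difference of the 10 genes was -1.37, against 0.0084 over all genes. None of the 10 passed the test over all genes (0 of 10, limma, with 0% of all genes called), and 2, Cxcl1 and Cxcl14, had an unadjusted p under 0.05, as did 4.76% of all genes. Because the set was chosen with these values known, nothing is read from these shares.

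The siControl arrays were far apart for several genes of the set, which for some was known when they were chosen. The arrays were over 1 log2 unit apart for 6 of the 10 genes, against 2.53% of all genes, and the siOrm arrays for 1 of 10 (Cxcl1), against 0.449%. The same 6 genes stood in siControl replicate 2 over 1 unit above every other array, which held for 0.943% of all genes (103 of 10923). By that margin Cxcl10 ranked 1, Cxcl2 ranked 3, S100a8 ranked 6, Cxcl9 ranked 8, S100a9 ranked 17 and Cxcl14 ranked 82 among all genes. The median gap in size over the 10 genes was 1.46 between the siControl arrays and 0.18 between the siOrm arrays, against 0.20 and 0.13 over all genes. Because of that choice, these shares, ranks and gaps describe the 10 genes and nothing further is read from them.

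**Figure D2:**
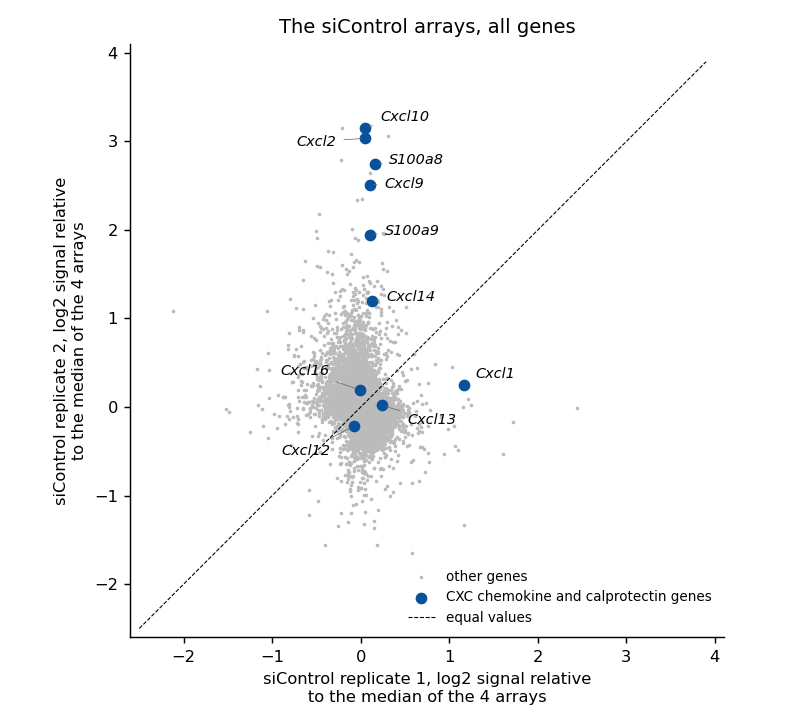
Each gene's log2 signal relative to the median of the 4 arrays in siControl replicate 1 (horizontal axis) and siControl replicate 2 (vertical axis); grey points are other genes, blue points the 10 chemokine and calprotectin genes, and the dashed line marks equal values. Cxcl10, Cxcl2, S100a8, Cxcl9, S100a9 and Cxcl14 lie at 1.20 to 3.15 in siControl replicate 2, and Cxcl1 lies to the right of most genes.

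Leaving out siControl replicate 2 brought the median difference of the 10 genes from -1.37 to -0.25. Of the 10 differences, 9 were still negative, and 1, that of Cxcl1, was still beyond 1 log2 unit. Quantile normalization was applied to the deposited centred values. It gives every array the same set of values, so a high tail in 1 array shrinks by construction. After it, with all 4 arrays kept, the differences of Cxcl2, Cxcl9, Cxcl10, S100a8 and S100a9 were -0.98, -1.02, -1.01, -1.19 and -0.72. Each was over 1.5 times smaller than on the deposited values. The Cxcl1 difference was -1.75. Leaving out siControl replicate 1 moved the median to -1.89. That fit sets siControl replicate 2 alone against siOrm and assumes that it varies like the siOrm pair. The height of some of the 10 genes in that array was known when they were chosen, so nothing is read from this shift. Cxcl1 depended on another array, with a difference of -0.96 without siOrm replicate 1 and -2.20 without siOrm replicate 2. Where groups do not overlap, leaving out 1 array cannot turn the direction, and Cxcl16, whose groups overlap, also stayed negative, from -0.35 to -0.082.

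**Figure D3:**
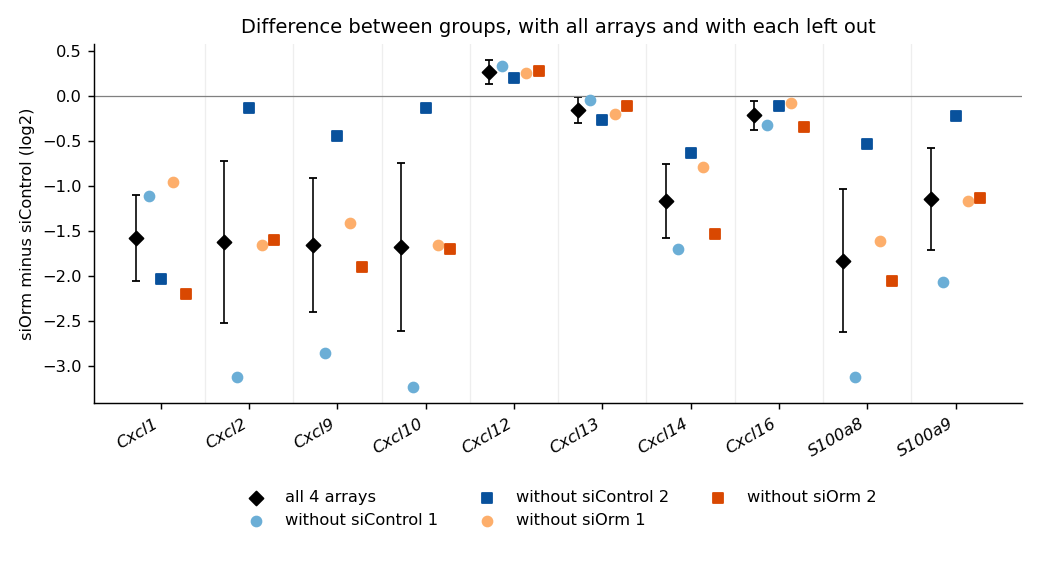
Difference siOrm minus siControl in log2 units (vertical axis) for the 10 genes, with all 4 arrays (black diamonds, bars are the standard error from limma) and with each array left out in turn (coloured points). Without siControl replicate 2 the differences of Cxcl2 and Cxcl10 shrink to -0.14 and -0.13, while that of Cxcl1 grows to -2.04.

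Of 4 other CXC ligands measured, none stood over 1 unit above every other array in siControl replicate 2, and 0 passed the test (0 at an unadjusted p under 0.05). Cxcl11, the third ligand of CXCR3, stood at -0.39 and 0.98 in siControl and at -0.13 and 0.13 in siOrm. Its margin over the next array in siControl replicate 2 was 0.85, and its difference was -0.30 (SE 0.43), or 0.39 without siControl replicate 2. The platelet chemokines Ppbp and Pf4 differed by 0.36 (SE 0.29) and 0.062 (SE 0.19), and Cxcl17 by 0.083 (SE 0.13). Without siControl replicate 1 the differences of Ppbp and Pf4 were -0.015 and -0.11. That of Pf4 was also -0.11 without siOrm replicate 2. Of these 4, 0 had siOrm below siControl without overlap and 1, Cxcl17, had it above. Over all genes these shares were 15.3% and 17%, and 4.76% had an unadjusted p under 0.05 (limma). The same shares stand beside the counts of every list below.

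Of the CXC receptors, 4 were measured, and none passed the test (0 of 4, limma, and 0 at an unadjusted p under 0.05). Cxcr2, the receptor for CXCL1 and CXCL2 on neutrophils, stood at 0.30 and 0.078 in siControl and at -0.19 and -0.078 in siOrm, a difference of -0.32 (SE 0.14). It was not highest in siControl replicate 2, where Cxcl2 stood at 3.03. Cxcr3, the receptor for CXCL9 and CXCL10, differed by 0.16 (SE 0.13), with siOrm above siControl without overlap. Cxcr5 differed by -0.051 (SE 0.14) and the scavenging receptor Ackr1 by -0.095 (SE 0.16).

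Among 17 other chemokine ligands of the CC, XC and CX3C families, 3 had siOrm lower and 3 higher without overlap (15.3% and 17% of all genes). Of the 17, 0 passed the test, 1 had an unadjusted p under 0.05 (limma, 4.76% of all genes), and the median difference was 0.025. Ccl9 stood at 0.21 and 0.32 against -0.47 and -0.21, a difference of -0.60 (SE 0.15). Ccl27a, Xcl1 and Cx3cl1 differed by 0.30, 0.26 and 0.18. One of the 17 stood over 1 unit above every other array in siControl replicate 2: Ccl2, a monocyte attractant named here after its values were seen, at 1.33.

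Of 10 other S100 genes, 0 were lower and 1, S100a13, was higher without overlap, 0 passed the test (0 at an unadjusted p under 0.05), and the median difference was 0.050. S100a4, found in fibroblasts and myeloid cells, stood at -0.16 and 1.50 in siControl and at -0.16 and 0.16 in siOrm. S100a10 stood at -0.23 and 0.88 against 0.23 and -0.28. Both were highest in siControl replicate 2, and S100a4 was the 1 of these 10 that stood there over 1 unit above every other array. S100a1 and S100a13 differed by 0.20 and 0.32.

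Of receptors and adaptors tied to calprotectin, 7 were measured, 0 of them without overlap between groups and 0 past the test (0 at an unadjusted p under 0.05), with a median difference of 0.021. Cd14, the co-receptor of TLR4 on myeloid cells, stood at -0.22 and 2.79 in siControl and at -0.15 and 0.15 in siOrm. This was the 1 gene of the 7 that stood over 1 unit above all other arrays in siControl replicate 2. Cd36 was lowest in siControl replicate 1, at -1.16, with 0.021 in siControl replicate 2 and 0.30 and -0.021 in siOrm. Ager differed by 0.24 and Myd88 by -0.16.

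Of 18 NF-kappaB feedback and inflammatory cytokine genes, 6 had siOrm lower and 1 higher without overlap (15.3% and 17% of all genes). Of the 18, 0 passed the test, 1 had an unadjusted p under 0.05 (limma, 4.76% of all genes), and the median difference was -0.19. Icam1, an adhesion molecule for white blood cells, stood at 0.15 and 0.77 against -0.67 and -0.15, a difference of -0.87 (SE 0.27), or -0.56 without siControl replicate 2. Nfkbiz differed by -0.63 (SE 0.25), Rela by -0.30 (SE 0.14) and Il1b by -0.30 (SE 0.16), and Nfkbiz and Il1b by -0.33 and -0.13 without siControl replicate 2. None of the 18 stood over 1 unit above every other array in siControl replicate 2.

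Of 20 interferon-gamma signalling and target genes, 5 were lower and 1 higher without overlap (15.3% and 17% of all genes). Of the 20, 0 passed the test and 1 had an unadjusted p under 0.05 (limma, 4.76% of all genes). The median difference was -0.089, or -0.015 without siControl replicate 2, -0.18 without siControl replicate 1 and 0.018 without siOrm replicate 2. Ifi47, an interferon-induced GTPase, stood at 0.35 and 0.62 against -0.35 and -0.35, a difference of -0.83 (SE 0.15). Jak1 and Irgm1 differed by -0.56 and -0.35, or by -0.23 and -0.22 without siControl replicate 2, and Gbp3 by 0.29, or by 0.085 without siControl replicate 1. None of the 20 stood over 1 unit above every other array in siControl replicate 2. Cxcl9 and Cxcl10 stood at 2.51 and 3.15 in that array. Even so, 12 of the 20 were highest there, and the 20 genes averaged 0.21 in it. Their average was -0.080 for siControl replicate 1, 0.027 for siOrm replicate 1 and -0.082 for siOrm replicate 2. Of 7 follicle and lymphotoxin genes, 1 was lower and 1 higher, 0 passed the test (0 at an unadjusted p under 0.05) and the median difference was 0.00076, with Fcer2a at 0.23, Lta at -0.22, Cr2 at 0.14 and Madcam1 at -0.070.

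Markers of cell types that carry calprotectin were set beside these genes. The 13 measured of 18 neutrophil markers had list means of 0.21 and -0.045 in siControl and -0.073 and 0.040 in siOrm. None of the 13 stood over 1 unit above the other arrays in siControl replicate 2, where S100a8 was at 2.75, and 2 of the 13, Csf3r at 0.14 and Mmp9 at 0.11, were highest there. The values of the 13 in that array ran from -0.27 (Ngp) to 0.23 (Fpr2). Prtn3, a granule protease, was instead high in siControl replicate 1, at 1.72, and Camp, Mmp8 and Il1r2 differed by 0.20, -0.17 and -0.14. Of the 13, 1 was lower and 1 higher without overlap (15.3% and 17% of all genes), and the median difference was -0.052. The neutrophil markers Ly6g, Fpr1, Retnlg, Padi4 and Itgam were not among the genes measured. Since the values are centred, they do not show whether a marker was at background in all arrays. The list mean therefore does not show whether neutrophils were more or fewer in any array, which was not tested.

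Monocyte markers, 4 measured of 8, had list means of -0.034 and 1.24 in siControl and -0.31 and -0.042 in siOrm. Chil3 stood at 1.96, F13a1 at 1.28, Lyz2 at 1.15 and Ccr2 at 0.58 in siControl replicate 2, each of them highest there. Of the 4, 2 (Chil3 and F13a1) had siOrm lower without overlap (15.3% of all genes). Both had an unadjusted p under 0.05 (limma, 4.76% of all genes), with 0 past the test. The median difference was -0.66, or -0.23 without siControl replicate 2 and -1.34 without siControl replicate 1. Kupffer cell and macrophage markers, 11 measured of 12, had list means of -0.27 and 0.63 in siControl and -0.0045 and -0.059 in siOrm, and 10 of the 11 were highest in siControl replicate 2. Marco, a scavenger receptor, stood there at 1.97, Vsig4 at 1.06 and Clec4f at 0.62, while Adgre1 was at -0.026. Their median difference was -0.17, and 0.33 without siControl replicate 2. The part of these cell types in the height of the chemokine and calprotectin genes was not tested.

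Stellate cell and sinusoidal endothelium markers were also highest on average in siControl replicate 2, at 0.44 (8 genes) and 0.30 (9 genes), against -0.28 and -0.16 in siControl replicate 1. In siOrm replicates 1 and 2 they stood at -0.12 and 0.12 and at -0.00072 and -0.031. B cell markers (7 genes) and T and NK cell markers (8 genes) were lowest there, at -0.16 and -0.12, and hepatocyte markers stood at -0.063. Cholangiocyte markers (4 genes) stood at 0.14 and erythroid markers (4 genes) at -0.25 in the same array, and the erythroid mean was highest in siOrm replicate 1, at 0.38. Of the 4 erythroid genes, 3 had siOrm higher without overlap (17% of all genes). Of them 2, Alas2 and Klf1, had an unadjusted p under 0.05 (limma, 4.76% of all genes). The erythroid median difference was 0.49, and 0.27 to 0.66 with 1 array left out. None of the genes of these lists passed the test over all genes.

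**Figure D4:**
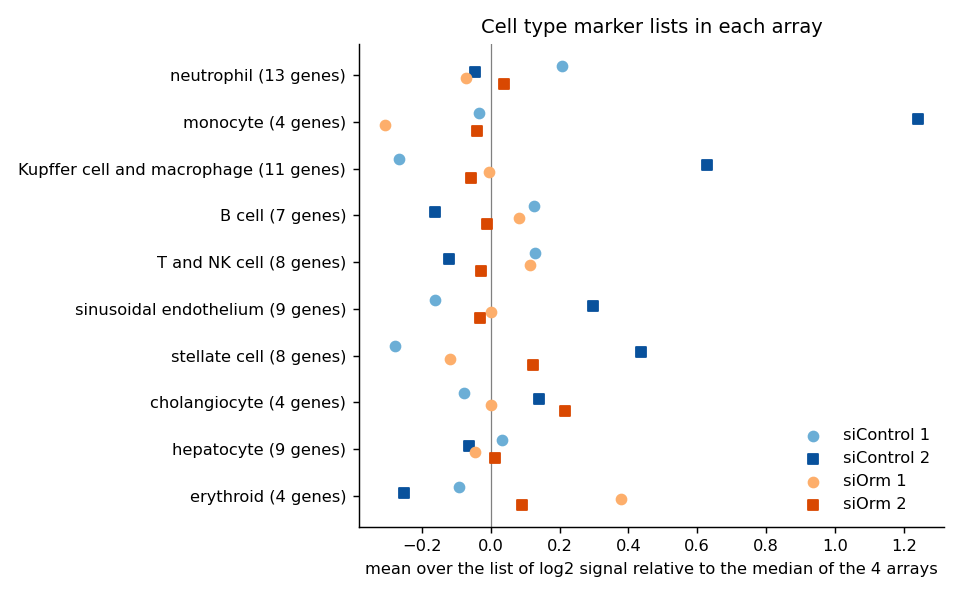
Mean over each marker list of log2 signal relative to the median of the 4 arrays (horizontal axis), with 1 point per array and the number of measured genes beside each list. The monocyte list reaches 1.24 and the Kupffer cell and macrophage list 0.63 in siControl replicate 2, where the neutrophil list is at -0.045. List means do not show cell numbers.

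The genes outside the set whose pattern was most like that of each chemokine or calprotectin gene were found by Euclidean distance over the 4 arrays. Nearest to the mean of S100a8 and S100a9 were Gstm3 at a distance of 0.416, Ubd at 0.417, Saa3 at 0.431, Sprr1a at 0.437 and Chil3 at 0.438. Saa3, a serum amyloid gene, stood at 0.13 and 1.99 in siControl and at -0.13 and -0.23 in siOrm. Within the set, Cxcl2 and Cxcl10 were 0.140 apart, closer than either was to Tcim, the nearest gene outside it (0.371 and 0.395), and S100a8 was closer to Cxcl9 (0.250) than to S100a9 (0.941).

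Cxcl1 had other neighbours. The nearest were Fabp5 at 0.357, Sdf2l1 at 0.683, Id3 at 0.685, Hspa1b at 0.716 and Tifa at 0.784. Fabp5, a fatty acid binding protein, stood at 1.15 and -0.0045 in siControl and at -1.49 and 0.0045 in siOrm. Within the set the closest to Cxcl1 was Cxcl14, at 1.54, and Cxcl2 was 3.33 away. Outside the set, the nearest gene to Cxcl9 was Gstm3 (0.547), to Cxcl12 Uox (0.021), to Cxcl13 Slc7a6 (0.038), to Cxcl14 Armcx4 (0.142) and to Cxcl16 Mef2a (0.012). With 4 arrays and 10923 genes, many genes lie close to any pattern near 0, as those of Cxcl12, Cxcl13 and Cxcl16 do.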

How the data were processed

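RNA of 4 liver samples was measured on single-colour arrays, named in the series text as an Affymetrix mouse array. The deposited table holds log2 values, which the authors had centred by probe set on the median of the 4 arrays (row medians were within 4.8e-07 of 0). Base 2 was assumed. Software, normalization and filtering before deposit: not given in the sources used here. The number of arrays limits the precision.

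Of 18852 probe sets, 17209 had 1 gene symbol in the platform's annotation, 564 several, 1044 none and 35 were controls. Gene values were means of probe sets. Groups were compared with limma 3.58.1 in R 4.3.3 (constant variance prior, two-sided, Benjamini-Hochberg adjustment over 10923 genes, threshold 0.05), checked on simulated data. The genes and the 18 comparison lists (211 genes, 164 measured) were chosen with earlier results of these data known. Named from each list were up to 4 genes of smallest p, with all CXC ligands and receptors, and the 5 genes nearest in pattern to calprotectin and to Cxcl1 and the 1 nearest to each other gene; marker genes named beyond these (Csf3r, Mmp9, Ngp, Fpr2) and Ccl2 were chosen after their values were seen. Promoters are from RefSeq (GRCm38.p6), and the 5 motifs were chosen with the sequences known. Alternatives were the variance prior, a replicate block, quantile normalization, the use of probe sets and leaving out each array.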

Additional observations from a re-analysis of the deposited data

How the results depend on the processing

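The count of 0 genes past the test became 11 with a trend in the variance prior and ranged from 0 to 229 when 1 array was left out (229 without siControl replicate 1). It was 0 with robust estimation, quantile normalization, medians of probe sets, probe sets without a shared-sequence mark and single probe sets. The number of the 10 genes with siOrm lower and groups apart ranged from 8 to 9 with 1 array left out, while the share of all genes rose from 15.3% to between 23.5% and 36.8%, and their median difference from -1.89 to -0.25. After quantile normalization, applied to the centred values, the median was -0.93. Then 4 of the 10 rather than 6 stood over 1 unit above every other array in siControl replicate 2 (0.101% of all genes). Of the 18 list medians, 12 took both signs over the fits with 1 array left out. Cxcl14 moved to -1.88 when 1418456_a_at was left out. The direction of each of the 10 differences was the same under all of its alternatives, of which S100a8 had 7 and the others 8. Most of these alternatives could not have turned it. A replicate block and medians of probe sets left every difference unchanged. Leaving out 1 array cannot turn a gene whose groups do not overlap. With the replicate number as a block, 0 genes passed, and 9 of the 10 genes were lower in both same-numbered pairs, as were 24.2% of all genes; same-numbered arrays had deviations correlated at 0.13 over genes, and nothing in the labels pairs them.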
